A study of Mus musculus with 18 samples.

Results

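The genes described here are the stress hormone genes Fgf21 and Gdf15, with Klb and Fgfr1, which encode the co-receptor and the main receptor of FGF21 on fat cells. They were taken by symbol and are 4 of the 24338 gene symbols that all 18 tables share. RNA-seq of polyadenylated RNA was carried out on mouse inguinal white adipose tissue (iWAT), a subcutaneous fat depot, and on cultures in which stromal-vascular cells from that depot were turned into adipocytes. The groups were NFIA-Tg and WT iWAT, NFIA-Tg and WT cultures at day 7 of adipocyte differentiation, and NFIA-Tg and WT cultures at day 0, with 3 samples in each of the 6 groups. NFIA-Tg carries a transgene for nuclear factor I A (NFIA), a transcription factor encoded by Nfia, and WT is wild type. Differentiation was started at confluence with isobutylmethylxanthine, indomethacin, dexamethasone, insulin, T3 and rosiglitazone for 48 hours. Insulin, T3 and rosiglitazone alone followed, so that NFIA-Tg and WT cultures at day 7 had both been kept with rosiglitazone, an agonist of PPARγ. The promoter of the transgene, the age, sex and number of the mice and the origin of replicates (separate animals or cultures, or not) are not given in the labels. P-values therefore measure the spread between samples, which could be technical.

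FGF21 is a secreted hormone of liver and fat. It binds β-klotho (KLB), which holds it on FGFR1, and the receptor then signals through FRS2, GRB2 and the MAP kinase pathway, which induces its own brakes, the Sprouty, Spred and dual-specificity phosphatase genes. Fat is a target of circulating FGF21 and, under cold or mitochondrial stress, also a source of it. GDF15 is a distant member of the TGF-β family that cells release under stress. Its receptor, GFRAL, works with RET and is found mainly in the hindbrain. Both hormone genes are known targets of the integrated stress response, in which phosphorylation of eIF2α raises translation of ATF4, and ATF4 and its partner CHOP (Ddit3) act on stress genes.

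The promoter windows of the hormone genes are shown because ATF4 acts on Fgf21 through the composite C/EBP-ATF element, and NFIA itself binds DNA. Windows run from 250 bases before to 50 bases after the annotated start and come from RefSeq on GRCm38.p6, whose table held 3 of the 4 genes. The expression tables were made on another build, mm9 per the submitters' processing notes, and were not joined by position. Letters searched on both strands were TGATGNAA, the core of the C/EBP-ATF element, and TGGCA, the short NFI motif. The palindromic NFI site, which can hold the short motif, was searched too. Capitals mark the matches.
Fgf21, chr7:45615441-45615740, minus strand: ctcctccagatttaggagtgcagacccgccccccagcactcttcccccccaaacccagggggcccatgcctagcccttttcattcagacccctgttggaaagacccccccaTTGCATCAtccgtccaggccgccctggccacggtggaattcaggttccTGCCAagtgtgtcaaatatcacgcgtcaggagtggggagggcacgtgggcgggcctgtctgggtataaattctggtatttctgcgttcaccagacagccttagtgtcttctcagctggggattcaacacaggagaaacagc
Gdf15, chr8:70632407-70632706, minus strand: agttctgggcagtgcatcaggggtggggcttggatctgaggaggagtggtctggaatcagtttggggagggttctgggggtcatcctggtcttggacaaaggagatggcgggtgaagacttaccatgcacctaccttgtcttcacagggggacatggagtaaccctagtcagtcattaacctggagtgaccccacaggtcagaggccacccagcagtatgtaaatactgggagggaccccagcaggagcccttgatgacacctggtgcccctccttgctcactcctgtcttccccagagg
Gdf15, other annotated start, chr8:70632046-70632345, minus strand: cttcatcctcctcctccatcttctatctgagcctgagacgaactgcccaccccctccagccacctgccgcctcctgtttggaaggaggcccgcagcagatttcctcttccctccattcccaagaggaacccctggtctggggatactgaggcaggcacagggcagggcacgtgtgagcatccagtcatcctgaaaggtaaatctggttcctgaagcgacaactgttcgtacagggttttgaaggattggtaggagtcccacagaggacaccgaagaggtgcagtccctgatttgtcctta
The Fgf21 window held 1 match to the C/EBP-ATF core, on the strand opposite to the gene, from -139 to -132 relative to the start. It also held 1 short NFI motif on that strand, from -91 to -87, apart from the other match. Neither Gdf15 window held any of these letters, nor did the Klb window (chr5:65348161-65348460, plus strand). Of the 32851 promoter windows in the table, 3.97% held the C/EBP-ATF core, 48.9% the short NFI motif and 0.0365% the palindromic NFI site. These are matches of letters, and binding was not measured here.

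Nfia was checked first, since it is the gene of the transgene. In iWAT it had 166, 99.6 and 157 FPKM (fragments per kilobase, scaled to library size) in NFIA-Tg, against 3.73, 4.19 and 3.94 FPKM in WT. At day 7 it had 6.44, 7.32 and 7.2 FPKM in the cultures labelled NFIA-Tg, against 12.5, 13 and 12 FPKM in WT cultures. At day 0 it had 11.3, 12.5 and 11.9 FPKM in the cultures labelled NFIA-Tg, against 6.42, 6.3 and 6.51 FPKM in WT cultures. Nfia was thus higher in NFIA-Tg iWAT and at day 0, and lower in the day 7 cultures labelled NFIA-Tg, where its log2 change was -0.76. The day 7 cultures go against what their label says of Nfia, and every genotype difference at day 7 is one between labels. Changes from day 0 to day 7 likewise join the cultures by label.

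The culture libraries held 16772594 to 28625625 reads, recovered from FPKM and gene length, while the depth of the iWAT libraries is unknown. The 6 fat cell markers (Adipoq, Plin1, Cidec, Lep, Fabp4 and Lipe) summed to 25400 to 37000 FPKM in NFIA-Tg iWAT and 27900 to 29400 FPKM in WT iWAT. They summed to 25200 to 28700 FPKM in day 7 cultures labelled NFIA-Tg and 23600 to 28000 FPKM in WT cultures at day 7, where Lep alone was under 0.1 FPKM in both. The day 7 sums hide differences of single markers. Of 5 tested, 2 were lower in cultures labelled NFIA-Tg and none higher, where 51.1% and 29.8% of all genes tested were. Adipoq, the gene of adiponectin, averaged 258 FPKM in these cultures and 1290 FPKM in WT cultures, a log2 change of -2.32 ± 0.06, and Cidec, of a lipid droplet protein, changed by -0.83 ± 0.09 (SE; limma, adjusted p = 3.99e-12 and 1.58e-06). In NFIA-Tg iWAT 1 of 6 (Plin1) was called higher and none lower, where 5.96% and 5.44% of all genes tested were. The median log2 change of the 6 was -0.27, and 4 had an unadjusted p under 0.05 in limma. These were Plin1 (0.49) and, on the lower side, Adipoq (-0.46), Lep (-0.46) and Lipe (-0.40). At day 0 the sums were 16 to 24.6 FPKM in cultures labelled NFIA-Tg and 8.28 to 10.5 FPKM in WT cultures, so the day 0 cells are not yet fat cells by these markers. Of 5 tested at day 0, 3 (Plin1, Fabp4 and Lipe) were higher in cultures labelled NFIA-Tg and none lower, where 28.1% and 34.9% of all genes tested were. The iWAT tables were annotated otherwise than the culture tables, so an order of levels that sets iWAT beside cultures is a description across tables made separately.

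Fgf21 was high only in the day 7 cultures among these groups. It had 140, 152 and 145 FPKM in day 7 cultures labelled NFIA-Tg, against 29.6, 33.4 and 30.8 FPKM in WT cultures at day 7. These values rest on 2296 to 3804 reads per library labelled NFIA-Tg and 642 to 704 per WT library, and the groups did not overlap. At day 0 it had 1.77, 1.56 and 1.48 FPKM in cultures labelled NFIA-Tg, from 35 to 40 reads, against 0.525, 0.576 and 0.68 FPKM in WT cultures, from 12 to 16 reads. Those groups did not overlap either, though both were low. In tissue it had 3.49, 1.92 and 1.7 FPKM in NFIA-Tg iWAT, against 3.23, 2.23 and 3.55 FPKM in WT iWAT, and the groups overlapped. By mean level the order was day 7 labelled NFIA-Tg (146), day 7 WT (31.3), WT iWAT (3.0), NFIA-Tg iWAT (2.37), day 0 labelled NFIA-Tg (1.6) and day 0 WT (0.594 FPKM). NFIA-Tg iWAT overlapped both its neighbours in that order.

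Gdf15 had another order, with its highest level before differentiation. At day 0 it had 18.7, 22.9 and 21.6 FPKM in cultures labelled NFIA-Tg, from 721 to 1151 reads, against 1.72, 2.33 and 2.63 FPKM in WT cultures, from 77 to 121 reads. The lowest of the libraries labelled NFIA-Tg stood far above the highest WT library. At day 7 it had 7.13, 7.96 and 6.92 FPKM in cultures labelled NFIA-Tg, against 5.65, 5.62 and 6.28 FPKM in WT cultures, which did not overlap but lay close. In tissue it had 2.41, 1.27 and 0.701 FPKM in NFIA-Tg iWAT, against 3.72, 1.77 and 3.17 FPKM in WT iWAT, with overlapping groups. By mean level the order was day 0 labelled NFIA-Tg (21.1), day 7 labelled NFIA-Tg (7.34), day 7 WT (5.85), WT iWAT (2.89), day 0 WT (2.23) and NFIA-Tg iWAT (1.46 FPKM), of which the last 3 overlapped each other.

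Klb, the co-receptor that makes a cell responsive to FGF21, was found in tissue and differentiated cultures and was near absent at day 0. It had 19.9, 21.6 and 20.9 FPKM in day 7 cultures labelled NFIA-Tg, against 38.6, 40.6 and 35.2 FPKM in WT cultures at day 7, with no overlap. At day 0 it had 1, 0 and 3 reads in the libraries labelled NFIA-Tg and 0, 1 and 1 reads in the WT libraries, at or under a floor of 3 reads per library, so no fold between genotypes is given there. In tissue it had 14.6, 14.8 and 12.6 FPKM in NFIA-Tg iWAT, against 13.2, 15.6 and 18.8 FPKM in WT iWAT, and these overlapped. All 6 day 7 libraries stood above all 6 iWAT libraries.

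Fgfr1, the receptor kinase, had its lowest levels in the day 7 cultures. At day 7 it had 13.3, 14.6 and 13.8 FPKM in cultures labelled NFIA-Tg, against 36.8, 36.4 and 37.5 FPKM in WT cultures. At day 0 it had 86.5, 85 and 86.2 FPKM in cultures labelled NFIA-Tg, against 79, 80.5 and 80.5 FPKM in WT cultures. The groups were separate at both days, by a small step at day 0 and a wide one at day 7. The share of all genes with separate groups is not given here. Since 63% of all genes tested were called at day 0 and 80.9% at day 7, separate culture groups alone do not set a gene apart. This holds for the other genes described as well. In tissue it had 89.7, 76.2 and 59.6 FPKM in NFIA-Tg iWAT, against 62, 62.7 and 61.5 FPKM in WT iWAT, where 1 NFIA-Tg library lay below all WT libraries. By mean level the order was day 0 labelled NFIA-Tg (85.9), day 0 WT (80.0), NFIA-Tg iWAT (75.2), WT iWAT (62.1), day 7 WT (36.9) and day 7 labelled NFIA-Tg (13.9 FPKM), and NFIA-Tg iWAT overlapped both its neighbours. The RefSeq gene Fgfr1 overlaps the long noncoding genes Gm31288 and Gm16159, and whether counting used strand is not given, so reads of these genes could not be told apart.

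**Figure D1:**
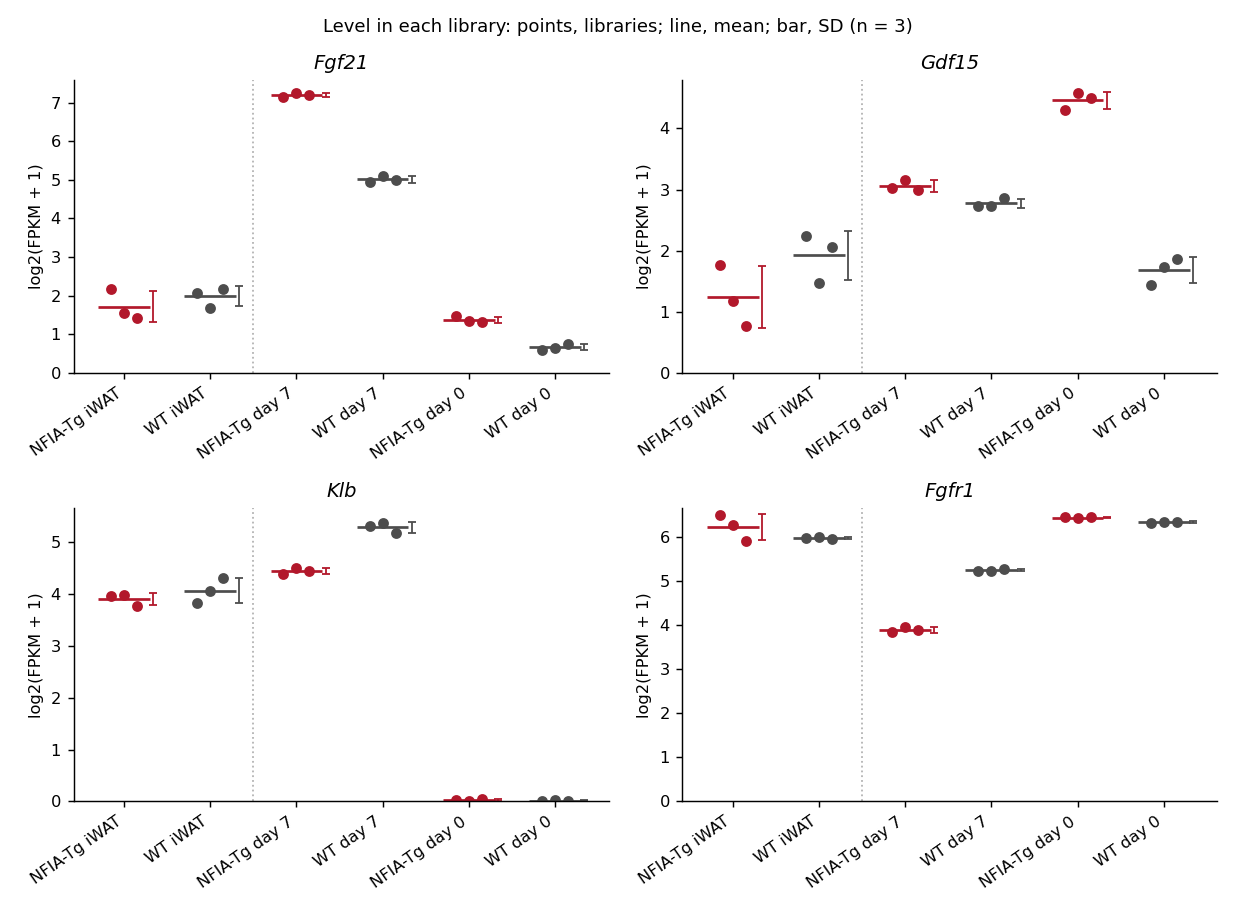
Level of Fgf21, Gdf15, Klb and Fgfr1 in each of the 18 libraries (points) as log2(FPKM + 1), by group, with the mean (line) and SD (bar) of 3 samples; tissue and culture tables were made separately. Fgf21 is highest at day 7 (140 to 152 FPKM in cultures labelled NFIA-Tg), Gdf15 at day 0 in cultures labelled NFIA-Tg (18.7 to 22.9 FPKM), and Klb has 0 to 3 reads per library at day 0.

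The comparison of genotypes in the differentiated cultures found the hormone genes higher and the receptor genes lower in day 7 cultures labelled NFIA-Tg. Fgf21 averaged 146 ± 6.18 FPKM in these cultures and 31.3 ± 1.93 FPKM in WT cultures (SD, n = 3 each), a ratio of means of 4.66. Its log2 change on the log2(FPKM + 1) scale, which understates the change of low genes, was 2.19 ± 0.06 (SE; limma, adjusted p = 9.66e-12, Benjamini-Hochberg over 12553 genes). Gdf15 averaged 7.34 ± 0.551 FPKM in cultures labelled NFIA-Tg and 5.85 ± 0.371 FPKM in WT cultures, a log2 change of 0.28 ± 0.10 (limma, adjusted p = 0.0215). Klb fell to 20.8 ± 0.883 FPKM, against 38.1 ± 2.73 FPKM in WT cultures, a log2 change of -0.84 ± 0.05 (limma, adjusted p = 1.74e-08). Fgfr1 fell to 13.9 ± 0.632 FPKM, against 36.9 ± 0.521 FPKM in WT cultures, a log2 change of -1.35 ± 0.04 (limma, adjusted p = 7.62e-12). All 4 genes passed an adjusted p of 0.05, as did 80.9% of all genes tested, so passing does not set these genes apart. The median log2 change of all genes tested was -0.17, and -0.06 under median-of-ratios scaling. The call of Gdf15 at day 7 was lost under TPM scaling (limma, adjusted p = 0.0873). It was also lost without WT replicate 1, WT replicate 2 or replicate 2 labelled NFIA-Tg (limma, adjusted p 0.06 to 0.083).

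At day 0 the larger difference was that of Gdf15. It averaged 21.1 ± 2.18 FPKM in cultures labelled NFIA-Tg and 2.23 ± 0.463 FPKM in WT cultures (SD, n = 3 each), a ratio of means of 9.46 and a log2 change of 2.78 ± 0.10 (limma, adjusted p = 4.88e-10). Fgf21 averaged 1.6 ± 0.154 FPKM in cultures labelled NFIA-Tg and 0.594 ± 0.079 FPKM in WT cultures, a ratio of means of 2.7 and a log2 change of 0.71 ± 0.06 (limma, adjusted p = 6.32e-07). A pseudocount of 0.1 gave 1.30 and limma-voom on recovered reads 1.42 for Fgf21 at day 0, with the call kept in both. Fgfr1 averaged 85.9 ± 0.771 FPKM in cultures labelled NFIA-Tg and 80.0 ± 0.899 FPKM in WT cultures, a log2 change of 0.10 ± 0.04 (limma, adjusted p = 0.0258). That call was lost without any 1 WT day 0 replicate and without replicate 1 or 3 labelled NFIA-Tg (limma, adjusted p 0.0513 to 0.0805). Of all genes tested at day 0, 63% passed.

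In tissue none of the 4 genes passed by limma, where 11.4% of 12396 genes did. The log2 changes in iWAT were -0.27 ± 0.23 for Fgf21 and -0.68 ± 0.29 for Gdf15 (SE; limma, adjusted p = 0.469 and 0.162). They were -0.16 ± 0.14 for Klb and 0.25 ± 0.14 for Fgfr1 (SE; limma, adjusted p = 0.492 and 0.288). With no adjustment 1 of the 4 genes (Gdf15) was under 0.05 in limma. In 1 limma fit to all 18 samples Gdf15 and Fgfr1 passed (adjusted p = 0.018 and 0.0453). That fit takes the spread of a gene from tissue and culture samples together, so its p-values do not measure the spread between tissue samples alone. The SD of Fgfr1 was 15.1 FPKM in NFIA-Tg iWAT and 0.521 to 0.899 FPKM in the culture groups. The SE of Gdf15 was 0.21 in that fit, in place of 0.29. The number of genes called in iWAT, 1413, rests on single libraries. Without NFIA-Tg replicate 2 it was 638, without NFIA-Tg replicate 3 745, without WT replicate 2 814 and without WT replicate 3 617. Markers of other cells differed between the tissues, where 5.96% of all genes tested were called higher and 5.44% lower. The 5 endothelial markers summed to 278 to 418 FPKM in NFIA-Tg iWAT and 586 to 630 FPKM in WT iWAT, with 3 of 5 called lower, and the 6 skeletal muscle markers to 13.1 to 41.9 FPKM in NFIA-Tg iWAT and 124 to 183 FPKM in WT iWAT, with 1 of 3 tested called lower. The 4 hepatocyte markers summed to 721 to 1300 FPKM in NFIA-Tg iWAT and 93 to 266 FPKM in WT iWAT. Cyp2e1 made up most of these sums and was the 1 of 3 tested called higher, at 2.44 ± 0.38 on the log2 scale (limma, adjusted p = 0.00646). The list did not move as one. Alb (0.95) and Apoa1 (-1.94) did not pass, and Ttr, too low for the main fit, stood at -1.64 with no filter. The 4 markers of dividing cells summed to 2.79 to 3.66 FPKM in NFIA-Tg iWAT and 6.07 to 9.16 FPKM in WT iWAT, with 1 of 3 tested (Cdk1) called lower. None of the tested macrophage (6), preadipocyte (6) or lymphocyte (3) markers passed by limma, of which 2, 3 and 0 had an unadjusted p under 0.05. Their part in these values was not tested, and in bulk samples fewer cells of a type and less RNA per cell cannot be told apart.

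**Figure D2:**
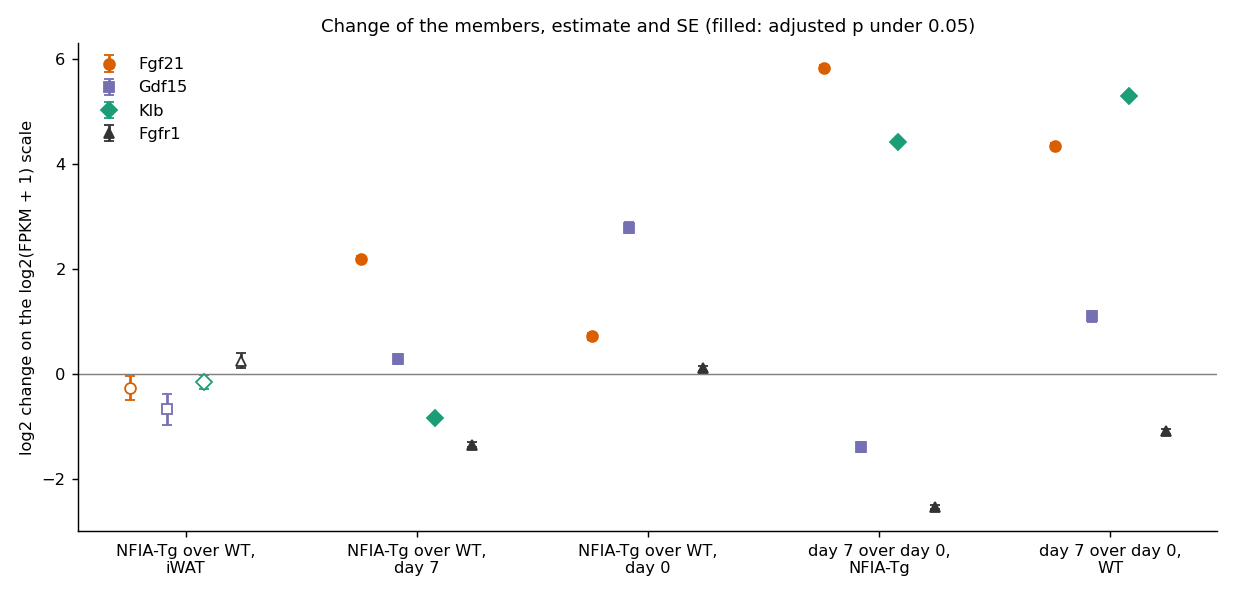
Log2 change on the log2(FPKM + 1) scale (vertical axis) of the 4 genes in each of 5 comparisons, as estimate with SE; filled symbols passed an adjusted p of 0.05, and Klb is not shown between genotypes at day 0. At day 7 Fgf21 stands at 2.19 and Fgfr1 at -1.35, while the iWAT estimates lie between -0.68 and 0.25 and did not pass.

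Between day 7 and day 0 all 4 genes changed in cultures of both labels, where 87.2% of genes were called in cultures labelled NFIA-Tg and 81.6% in WT cultures. Fgf21 rose in both. It had 9617 reads at day 7 against 115 at day 0 in cultures labelled NFIA-Tg, a ratio per total reads of 91.9 (95% exact interval, for counting error only, 76.5 to 111). In WT cultures it had 2023 reads against 40, a ratio of 52.4 (38.3 to 73.5). Klb had 4977 reads at day 7 against 4 at day 0 in cultures labelled NFIA-Tg, a ratio of 1370 (534 to 5020), and 8989 against 2 in WT cultures, a ratio of 4650 (1290 to 38400). Its day 0 counts are too few to fix the size of that rise. Fgfr1 fell in both, with ratios of 0.162 (0.157 to 0.167) in cultures labelled NFIA-Tg and 0.462 (0.452 to 0.471) in WT cultures. Gdf15 was the gene whose direction differed. It fell to 7.34 FPKM at day 7, against 21.1 FPKM at day 0, in cultures labelled NFIA-Tg, a log2 change of -1.40 ± 0.10 (SE; limma, adjusted p = 2.52e-08). In WT cultures it rose to 5.85 FPKM at day 7, against 2.23 FPKM at day 0, a log2 change of 1.09 ± 0.10 (SE; limma, adjusted p = 4.42e-07).

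The difference between these responses was tested as genotype by differentiation, in which 72.1% of genes passed. It was 1.48 ± 0.08 for Fgf21 and -2.50 ± 0.14 for Gdf15 on the log2(FPKM + 1) scale (SE; limma, adjusted p = 1.08e-08 for each). It was -1.45 ± 0.05 for Fgfr1 (SE; limma, adjusted p = 1.72e-10). These 3 genes passed, Fgf21 upward and the others downward. With a pseudocount of 0.1 the value of Fgf21 was 0.92, and limma-voom on reads gave 0.94, with the call kept in both. For Klb the fit gives no usable test, since at day 0 it was at or under the floor of 3 reads in every library. Its value on the log2(FPKM + 1) scale, -0.85, repeats the day 7 difference of -0.84, and limma-voom on reads gave -1.08 ± 0.97 (SE; adjusted p = 0.334).

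The genotype difference in iWAT less that at day 7 was also tested, with each difference taken within its own tables, and 54.3% of 13101 genes passed. It was -2.45 ± 0.24 for Fgf21 and -0.97 ± 0.33 for Gdf15 (SE; limma, adjusted p = 5.74e-06 and 0.0247). It was 0.68 ± 0.16 for Klb and 1.60 ± 0.16 for Fgfr1 (SE; limma, adjusted p = 0.0031 and 5.98e-06). The genotype differences of all 4 genes thus differed between tissue and day 7 cultures, those of the hormones being lower and those of the receptors higher in tissue. The Gdf15 value lost its call without WT iWAT replicate 1 or 3, WT day 7 replicate 2 or day 7 replicate 2 labelled NFIA-Tg (limma, adjusted p 0.0508 to 0.0554).

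Within a library, hormone and receptor levels per length could be set against each other. Fgf21 over Klb was 6.92 to 7.05 in day 7 cultures labelled NFIA-Tg and 0.766 to 0.875 in WT cultures at day 7. The hormone transcript thus exceeded that of its co-receptor in all 3 libraries labelled NFIA-Tg and in no WT library at that day. In tissue the ratio was 0.13 to 0.239 in NFIA-Tg iWAT and 0.143 to 0.244 in WT iWAT, which overlapped. Klb over Fgfr1 was 1.48 to 1.51 in day 7 cultures labelled NFIA-Tg and 0.939 to 1.11 in WT cultures at day 7. In tissue Klb over Fgfr1 was 0.163 to 0.211 in NFIA-Tg iWAT and 0.213 to 0.306 in WT iWAT, whose nearest libraries were almost equal. Fgf21 over Gdf15 was 19.1 to 20.9 in day 7 cultures labelled NFIA-Tg and 4.9 to 5.94 in WT cultures at day 7. At day 0 that ratio was 0.068 to 0.0949 in cultures labelled NFIA-Tg and 0.247 to 0.305 in WT cultures, so Gdf15 was the higher of the hormone transcripts at day 0 and Fgf21 at day 7 in every culture library. The gene lengths behind the iWAT values are not given, so ratios between genes are less sure there than in cultures.

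**Figure D3:**
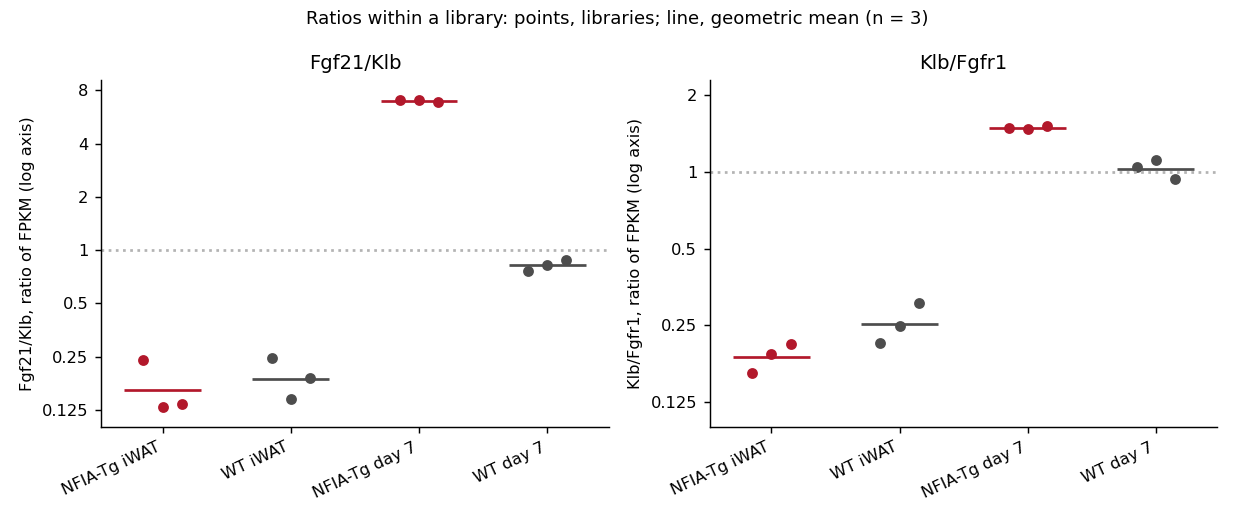
Fgf21 over Klb (left) and Klb over Fgfr1 (right) as ratios of FPKM on a log axis, in iWAT and day 7 groups; points are libraries, lines the geometric mean of 3, and the dotted line equal levels. Fgf21 over Klb is 6.92 to 7.05 in the 3 day 7 libraries labelled NFIA-Tg and 0.766 to 0.875 in the 3 WT libraries at day 7.

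Genes of the integrated stress response were mostly higher, with Fgf21, in day 7 cultures labelled NFIA-Tg. Of 28 such genes 25 rose and 3 (Sesn2, Psat1 and Slc7a5) fell, with a median log2 change of 0.82, where 29.8% of all genes tested were higher and 51.1% lower. Under every alternative run 25 were higher. Atf4, the transcription factor at the centre of the response, had 453, 448 and 438 FPKM in day 7 cultures labelled NFIA-Tg, against 171, 172 and 160 FPKM in WT cultures, a log2 change of 1.41 ± 0.04 (limma, adjusted p = 1.15e-11). Ddit3, which encodes CHOP, had 885, 809 and 838 FPKM in day 7 cultures labelled NFIA-Tg, against 60.4, 60.0 and 55.2 FPKM in WT cultures, a log2 change of 3.83 ± 0.05 (limma, adjusted p = 6.07e-14). Trib3, a pseudokinase induced by ATF4 and CHOP, had 251, 229 and 235 FPKM in day 7 cultures labelled NFIA-Tg, against 28, 28.6 and 26 FPKM in WT cultures, a log2 change of 3.07 ± 0.05 (limma, adjusted p = 2.82e-13). None of these groups overlapped. Herpud1, which serves degradation of proteins at the endoplasmic reticulum, averaged 228 FPKM in day 7 cultures labelled NFIA-Tg and 27.6 FPKM in WT cultures. Asns, asparagine synthetase and a classical ATF4 target, averaged 162 and 94.4 FPKM in these groups, a log2 change of 0.77 ± 0.05. Atf3, a stress-induced transcription factor, averaged 15.9 and 12.3 FPKM, a log2 change of 0.35 ± 0.09.

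The same list was not one-sided at day 0, where Gdf15 differed most. In cultures labelled NFIA-Tg at day 0, 7 of the 28 stress response genes rose and 7 fell, with a median log2 change of 0.05, where 28.1% of all genes tested were higher and 34.9% lower. Atf4 rose to 262 FPKM in cultures labelled NFIA-Tg, against 190 FPKM in WT cultures, a log2 change of 0.46 ± 0.04 (limma, adjusted p = 7.04e-07). Ddit3 fell to 84.8 FPKM, against 97.1 FPKM in WT cultures, a log2 change of -0.19 ± 0.05 (limma, adjusted p = 0.0054). Trib3 averaged 38.3 FPKM in cultures labelled NFIA-Tg and 39.2 FPKM in WT cultures, and Asns 78 and 81.9 FPKM, and neither passed. Shmt2 and Mthfd2, mitochondrial enzymes of one-carbon metabolism, had log2 changes of -0.56 and -0.52.

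In NFIA-Tg iWAT 3 of 27 stress response genes (Ddit3, Nupr1 and Asns) were called higher and 2 (Atf3 and Psat1) lower, with a median log2 change of 0.03, where 5.96% of all genes tested were higher and 5.44% lower. Asns had 51.3, 59.1 and 52.1 FPKM in NFIA-Tg iWAT, against 26.7, 30.2 and 26.2 FPKM in WT iWAT, a log2 change of 0.94 ± 0.10 (limma, adjusted p = 0.00212). Psat1, an enzyme of serine synthesis, fell to 35.6 FPKM in NFIA-Tg iWAT, against 60.3 FPKM in WT iWAT, a log2 change of -0.75 ± 0.11 (limma, adjusted p = 0.00496). Atf4 averaged 107 FPKM in NFIA-Tg iWAT and 105 FPKM in WT iWAT and Trib3 14.2 and 12.5 FPKM, and neither passed. The call of Ddit3 in iWAT was lost without any 1 of the 6 iWAT libraries (limma, adjusted p 0.0538 to 0.153). Those of Nupr1 and Atf3 were lost without NFIA-Tg replicate 2 or 3 or any 1 WT replicate (limma, adjusted p 0.0522 to 0.13). Across all alternatives 1 to 8 genes of the list were higher and 1 to 6 lower. The genotype difference in iWAT less that at day 7 was called lower for 20 of the 28 and higher for none, where 18.5% and 35.8% of all genes tested were.

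Over differentiation the list also stood otherwise by label. In cultures labelled NFIA-Tg 23 of the 28 stress response genes were higher at day 7 than at day 0 and 4 lower, where 45.7% and 41.5% of all genes tested were. In WT cultures 13 were higher and 11 lower, where 46.2% and 35.4% were, and TPM scaling gave 9 higher and 15 lower. Ddit3 changed by 3.30 on the log2 scale in cultures labelled NFIA-Tg and by -0.72 in WT cultures, and Trib3 by 2.61 and -0.49. The test of genotype by differentiation called 23 of the 28 higher and 2 (Sesn2 and Slc7a5) lower, where 29.5% and 42.6% of all genes tested were.

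**Figure D4:**
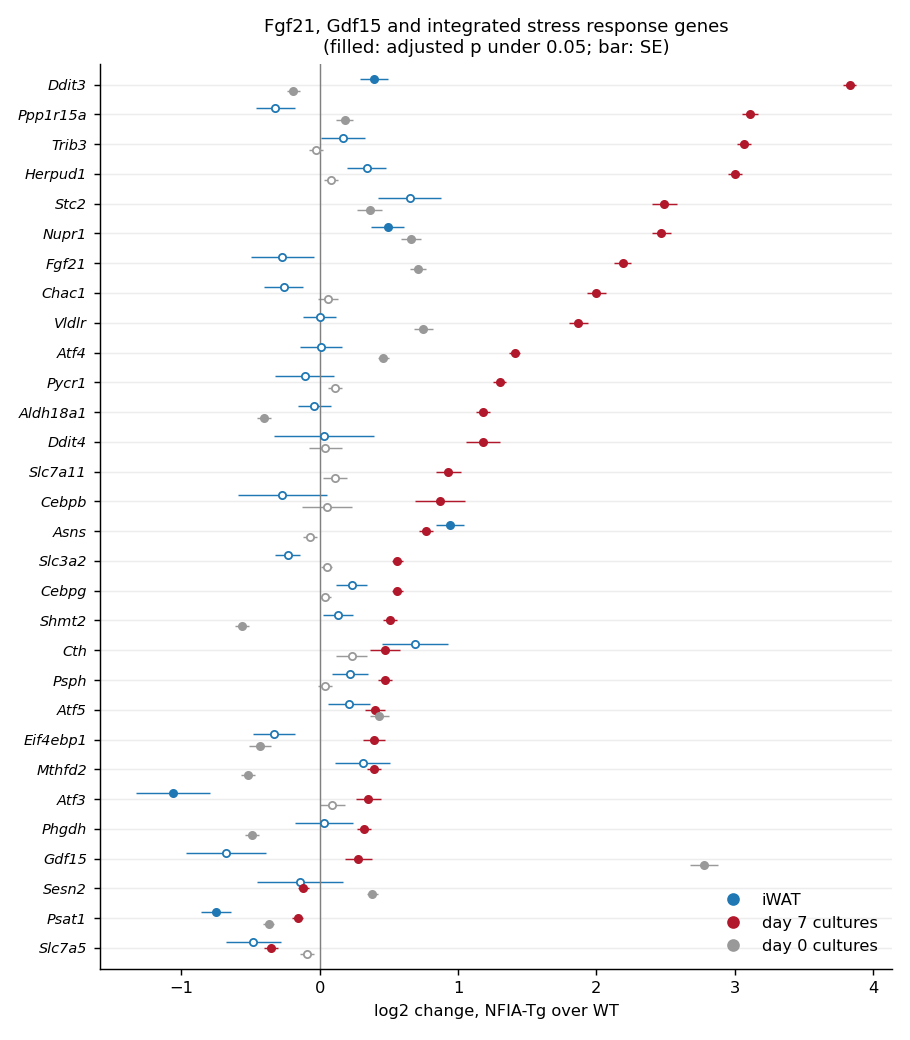
Log2 change, NFIA-Tg over WT, of genes of the integrated stress response with Fgf21 and Gdf15, in iWAT (blue), day 7 (red) and day 0 cultures (grey); bars are SE and filled points passed an adjusted p of 0.05. Day 7 values reach 3.83 (Ddit3), while at day 0 Gdf15 stands at 2.78.

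A list of 12 genes held kinases and regulators of the integrated stress response together with mitochondrial stress proteins. In day 7 cultures labelled NFIA-Tg 7 were higher and 4 lower, where 29.8% and 51.1% of all genes tested were. The higher were the mitochondrial chaperones and proteases Hspd1, Hspe1, Hspa9, Lonp1 and Clpp and the kinases Eif2ak1 (0.09) and Eif2ak3 (0.30). The kinases Eif2ak2 (-1.18) and Eif2ak4 (-0.70) were lower, with Ppp1r15b and Oma1. Lonp1, the mitochondrial matrix protease, averaged 354 FPKM in day 7 cultures labelled NFIA-Tg and 123 FPKM in WT cultures, and Hspa9, the mitochondrial HSP70, averaged 1200 and 501 FPKM. Eif2ak4 (GCN2, the kinase that senses uncharged tRNA) fell to 4.08 FPKM, against 7.23 FPKM in WT cultures. At day 0, 1 of the 12 (Oma1) was higher and 7 were lower, against 28.1% and 34.9% of all genes tested. In NFIA-Tg iWAT 3 of 12 (Hspd1, Hspa9 and Clpp) were called higher, against 5.96% of all genes tested, each losing its call without NFIA-Tg replicate 2 or 3 or any 1 WT replicate (limma, adjusted p 0.0597 to 0.137).

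Among transcription factors known to act on Fgf21 or Gdf15, which include Atf4 and Ddit3 again, 7 of 14 were higher and 6 lower in day 7 cultures labelled NFIA-Tg, where the shares of all genes tested were 29.8% and 51.1%. Ppara, through which fasting induces Fgf21 in liver, had 25.1, 26.5 and 30.3 FPKM in day 7 cultures labelled NFIA-Tg, against 2.31, 2.48 and 2.03 FPKM in WT cultures, a log2 change of 3.11 ± 0.07 (limma, adjusted p = 2.62e-12). Ppargc1a, the coactivator PGC-1α, had 21, 24.8 and 27.5 FPKM in day 7 cultures labelled NFIA-Tg, against 0.501, 0.687 and 0.655 FPKM in WT cultures, a log2 change of 3.97 ± 0.08 (limma, adjusted p = 1.26e-12). For both genes the groups were far apart. The 6 lower at day 7 were Rxra (-1.31), Ppard (-0.50), Egr1 (-0.47), Trp53 (-0.46), Nr4a1 (-0.35) and Mlxipl (-0.33). The part of any of these factors in the level of Fgf21 was not tested. At day 0, 6 of 14 were higher and 3 lower, against 28.1% and 34.9% of all genes tested. At that day Pparg, the regulator of fat cell formation and target of rosiglitazone, averaged 15.2 FPKM in cultures labelled NFIA-Tg and 3.69 FPKM in WT cultures, a log2 change of 1.79 ± 0.05 (limma, adjusted p = 6.05e-11). At day 7 Pparg averaged 72.5 FPKM in cultures labelled NFIA-Tg and 70.7 FPKM in WT cultures and did not pass. In NFIA-Tg iWAT 4 of 14 (Ppara, Ppargc1a, Ddit3 and Rora) were called higher, against 5.96% of all genes tested, and across all alternatives 0 to 7.

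On the receptor side, 5 of 6 measured FGF receptors and klothos fell in day 7 cultures labelled NFIA-Tg and 1 rose, with a median log2 change of -0.90, where 51.1% of all genes tested were lower and 29.8% higher. Besides Fgfr1 and Klb, Fgfrl1, a receptor without a kinase domain, fell to 39.2 FPKM, against 76.9 FPKM in WT cultures. Fgfr3 fell to 0.451 FPKM, against 2.11 FPKM in WT cultures. Fgfr2 had a log2 change of -0.26 (limma, adjusted p = 0.001), a call lost under median-of-ratios scaling (limma, adjusted p = 0.0502). The gene that rose was Lctl, a klotho relative of Klb, with 33.5, 32.3 and 31.5 FPKM in day 7 cultures labelled NFIA-Tg, against 5.8, 6.11 and 5.36 FPKM in WT cultures, a log2 change of 2.31 ± 0.05 (limma, adjusted p = 2.12e-12). Its level was 1.49 to 1.68 times that of Klb in the cultures labelled NFIA-Tg and 0.15 to 0.152 times in WT cultures. In tissue Lctl went the other way, with 3.43, 7.73 and 5.61 FPKM in NFIA-Tg iWAT, against 35.4, 51.9 and 54.8 FPKM in WT iWAT, a log2 change of -2.91 ± 0.26 (limma, adjusted p = 0.000871). The difference of these effects, iWAT less day 7, was -5.21 ± 0.30 (limma, adjusted p = 8.68e-08). Fgfr4 and Kl, the klotho that serves FGF23, were at or under 0.0954 FPKM in every library.

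At day 0 the receptors stood otherwise, with 4 of 6 (Fgfr1, Fgfr2, Fgfr3 and Fgfrl1) higher in cultures labelled NFIA-Tg and none lower, where 28.1% and 34.9% of all genes tested were. The other two, Klb and Lctl, were near 0 at that day, and the call of Fgfr1 was lost without any of 5 of the 6 day 0 libraries. Fgfr2 had 15.6, 15.3 and 17.7 FPKM in cultures labelled NFIA-Tg, against 4.99, 4.64 and 5.25 FPKM in WT cultures, a log2 change of 1.53 ± 0.06 (limma, adjusted p = 4.88e-10). In NFIA-Tg iWAT Fgfr2 was also called higher, with 7.12, 6.25 and 4.68 FPKM, against 1.87, 3.41 and 3.44 FPKM in WT iWAT, a log2 change of 0.86 ± 0.21 (limma, adjusted p = 0.0382). That iWAT call was lost without NFIA-Tg replicate 1 or 2 or any 1 WT replicate (limma, adjusted p 0.0578 to 0.113). With Lctl lower, 1 of 6 measured receptors and klothos was higher and 1 lower in NFIA-Tg iWAT, against 5.96% and 5.44% of all genes tested.

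Genes that carry or brake the signal of FGF receptors were mostly lower at day 7. Of 21 measured, 17 fell in day 7 cultures labelled NFIA-Tg and none rose, with a median log2 change of -0.47, where 51.1% of all genes tested were lower. Across all alternatives 14 to 18 were lower, 15 of them under median-of-ratios scaling. Spry4, a Sprouty brake on the MAP kinase pathway, had 2.46, 2.66 and 2.48 FPKM in day 7 cultures labelled NFIA-Tg, against 16.8, 18.3 and 17.5 FPKM in WT cultures, a log2 change of -2.39 ± 0.08 (limma, adjusted p = 3.01e-11). Phlda1 fell to 2.55 FPKM, against 8.36 FPKM in WT cultures, and Grb2, the adaptor that links the receptor to RAS, to 15.2 FPKM, against 27.8 FPKM. At day 0, 10 of 21 were higher and 5 lower, against 28.1% and 34.9% of all genes tested, Spry4 among the higher with 3.7 FPKM in cultures labelled NFIA-Tg and 1.19 FPKM in WT cultures. Between day 7 and day 0, 1 of 21 rose and 18 fell in cultures labelled NFIA-Tg, where 45.7% and 41.5% of all genes tested did, and 5 rose and 13 fell in WT cultures, where 46.2% and 35.4% did. In NFIA-Tg iWAT none of 19 passed by limma, where 11.4% of all genes tested did, so the lack of calls does not set this list apart. Of the 19, 3 had an unadjusted p under 0.05, and at most 1 was higher and 5 lower in any alternative.

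Markers of other cell states also differed between the labels, in other ways at day 0 than at day 7. The 7 preadipocyte and fibroblast markers summed to 80.5 to 109 FPKM in day 7 cultures labelled NFIA-Tg and 521 to 574 FPKM in WT cultures at day 7. Dpp4 was at 0 in the former and under 0.1 FPKM in the latter. Of the 6 tested, 5 were lower and 1 (Pi16) higher, where 51.1% and 29.8% of all genes tested were. At day 0 the 7 summed to 3200 to 3380 FPKM in cultures labelled NFIA-Tg and 3590 to 3930 FPKM in WT cultures. Of the 6 tested at day 0, 3 (Pi16, Thy1 and Dlk1) were higher and 1 (Pdgfrb) lower. The shares of all genes tested were 28.1% and 34.9% at that day. The 4 markers of dividing cells summed to 88.1 to 92.7 FPKM in day 7 cultures labelled NFIA-Tg and 268 to 281 FPKM in WT cultures at day 7, and all 4 were lower. At day 0 they summed to 47.4 to 51.9 FPKM in cultures labelled NFIA-Tg and 139 to 142 FPKM in WT cultures. All 4 were lower again, where 34.9% of all genes tested were lower at that day. Their part in the hormone, receptor and feedback genes was not tested. The 6 macrophage markers summed to 6.92 to 7.33 FPKM in day 7 cultures labelled NFIA-Tg and 2.94 to 3.31 FPKM in WT cultures at day 7, most of it Cd68, at 6.98 and 2.66 FPKM. Cd68 was the 1 of 2 tested that was higher, and Lyz2 had a log2 change of -0.24 and did not pass. Csf1r was under 1 FPKM and Adgre1 was at 0 in both groups. Mrc1 was at 0 in the cultures labelled NFIA-Tg and under 0.1 FPKM in WT cultures. Of 3 endothelial markers tested at day 7, Pecam1 was higher and Kdr and Tek lower, with sums of 3.13 to 3.61 FPKM in cultures labelled NFIA-Tg and 2.22 to 2.52 FPKM in WT cultures.

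**Figure D5:**
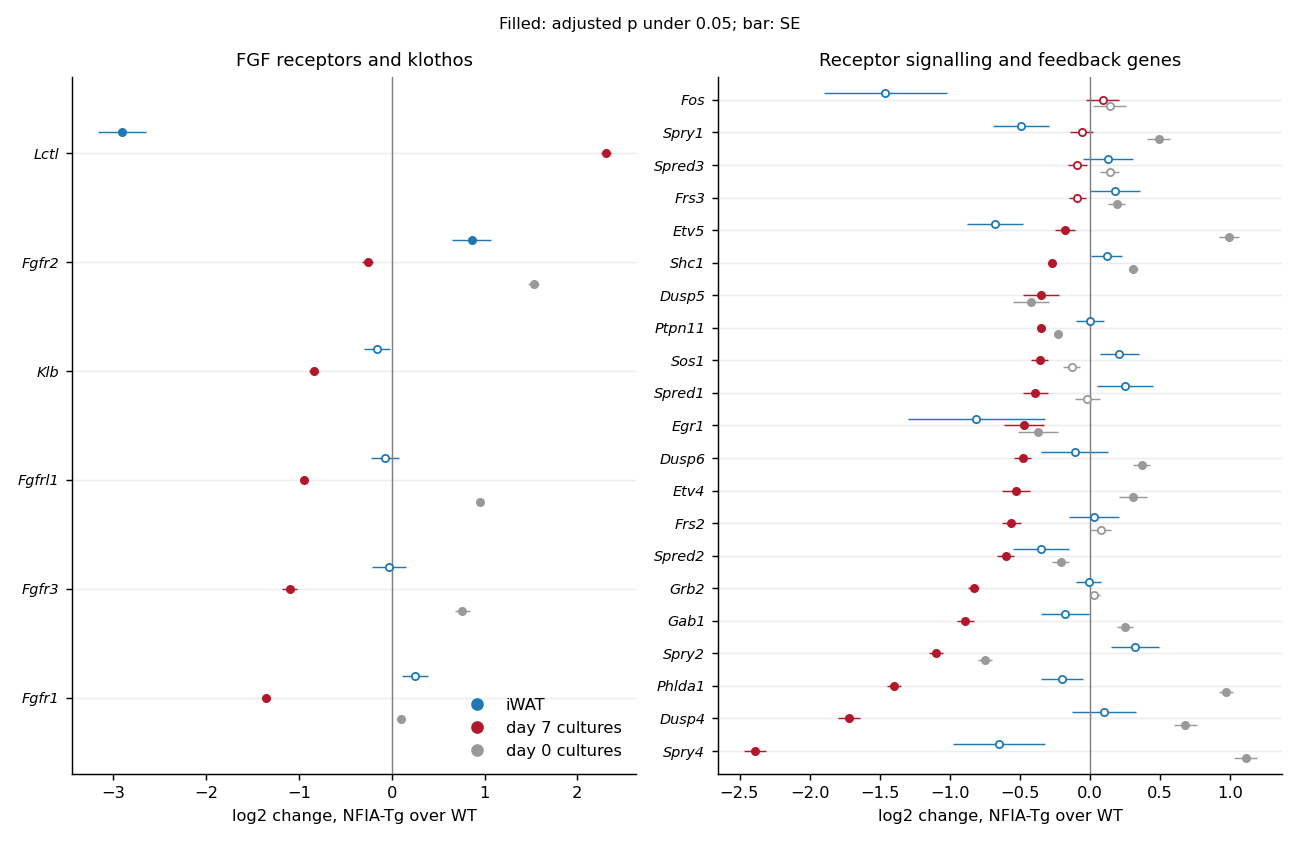
Log2 change, NFIA-Tg over WT, of FGF receptors and klothos and of receptor signalling and feedback genes, in iWAT (blue), day 7 (red) and day 0 cultures (grey); bars are SE, filled points passed an adjusted p of 0.05, and Klb and Lctl are not shown at day 0, where they were near 0. At day 7 the filled points other than Lctl (2.31) lie below 0, down to -2.39 for Spry4.

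Of 22 FGF ligands 6 were measured in cultures, Fgf21 among them, and at day 7 Fgf21 and Fgf1 rose while Fgf2, Fgf7 and Fgf10 fell in cultures labelled NFIA-Tg, where 29.8% and 51.1% of all genes tested did. Fgf1, a growth factor that binds all FGF receptors, had 3.14, 3.51 and 3.97 FPKM in day 7 cultures labelled NFIA-Tg, against 0.57, 0.525 and 0.372 FPKM in WT cultures, a log2 change of 1.61 ± 0.08 (limma, adjusted p = 9.71e-10). Fgf7, a growth factor of mesenchymal cells, fell to 3.62 FPKM, against 13.2 FPKM in WT cultures. The call of Fgf2 was lost without WT replicate 1 or replicate 1 labelled NFIA-Tg (limma, adjusted p 0.0664 to 0.0674). It was also lost under median-of-ratios scaling, which gave a log2 change of -0.17 in place of -0.30, and under limma-voom on reads, which gave -0.21 (limma, adjusted p = 0.126 in both). The call of Fgf10 was lost without WT replicate 3 (limma, adjusted p = 0.0516). At day 0 Fgf10 averaged 3.36 FPKM in cultures labelled NFIA-Tg and 0.0884 FPKM in WT cultures, and Fgf2 15.7 and 4.17 FPKM, and both passed. In tissue Fgf1 fell to 10.5 FPKM in NFIA-Tg iWAT, against 21.5 FPKM in WT iWAT (limma, adjusted p = 0.00991). Fgf13, which is kept inside the cell, fell to 3.51 FPKM in NFIA-Tg iWAT, against 29.4 FPKM in WT iWAT (limma, adjusted p = 0.000139), and had 0 reads in every culture. Fgf11 was called higher in NFIA-Tg iWAT, a call lost without NFIA-Tg replicate 1 or 2 or WT replicate 1 or 3 (limma, adjusted p 0.0556 to 0.0922). Fgf15 and Fgf23, the other endocrine FGF genes, were at or under 0.0905 FPKM in every library.

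The receptor of GDF15 was not detected in these samples. Gfral had 0 reads in all 12 culture libraries, where 3 reads is the limit that a count of 0 allows, and was listed at 0 in all 6 iWAT libraries. Ret, its signalling partner, averaged 13.3 FPKM in NFIA-Tg iWAT and 13.9 FPKM in WT iWAT and did not pass. In cultures Ret averaged 0.997 FPKM at day 7 in those labelled NFIA-Tg and 0.716 FPKM in WT, a call lost without WT replicate 1 or replicate 1 or 3 labelled NFIA-Tg (limma, adjusted p 0.0571 to 0.117) and under TPM scaling (limma, adjusted p = 0.0631). Gfra1, a GDNF receptor of the same family as Gfral, averaged 8.47 FPKM in NFIA-Tg iWAT and 0.956 FPKM in WT iWAT, a log2 change of 2.29 ± 0.16 (limma, adjusted p = 0.000331). In cultures labelled NFIA-Tg it was higher at day 7 and lower at day 0, with log2 changes of 1.02 and -1.32. Pcsk5, a proprotein convertase, had 4.25, 4.05 and 4.62 FPKM in day 7 cultures labelled NFIA-Tg, against 0.121, 0.104 and 0.0921 FPKM in WT cultures. It averaged 4.65 FPKM at day 0 in cultures labelled NFIA-Tg and 0.124 FPKM in WT cultures, so the groups stood apart at both days. Fap, a protease whose human form cleaves FGF21, averaged 0.362 FPKM in day 7 cultures labelled NFIA-Tg and 2.2 FPKM in WT cultures, a log2 change of -1.23 ± 0.07 (limma, adjusted p = 2.52e-09). In tissue Fap averaged 10.3 FPKM in NFIA-Tg iWAT and 6.47 FPKM in WT iWAT, a log2 change of 0.59 ± 0.10 (limma, adjusted p = 0.0101). Of the 8 genes of this list measured in cultures 4 were higher and 4 lower at day 7, and 3 higher and 3 lower at day 0, in cultures labelled NFIA-Tg. The shares of all genes tested were 29.8% and 51.1% at day 7 and 28.1% and 34.9% at day 0. Of 10 in iWAT, 3 were higher (Gfra1, Pcsk6 and Fap) and none lower, against 5.96% and 5.44% of all genes tested.

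The genes whose pattern over the 6 groups was most like that of each gene were found by the root mean square difference of centred log2(FPKM + 1) group means, among 12540 genes. For Fgf21 they were Scd3, Reep6 and Phospho1, at differences of 0.53, 0.58 and 0.60. Phospho1, a phosphatase, averaged 137 FPKM in day 7 cultures labelled NFIA-Tg and 35.2 FPKM in WT cultures, while Scd3, a fatty acid desaturase, averaged 103 and 15 FPKM in these groups and was listed at 0 in iWAT. For Gdf15 they were Kazald1, Bglap and Psd4, at 0.52, 0.53 and 0.53, all with at most 11.3 FPKM in any library. Bglap had 144 summed reads in day 0 cultures labelled NFIA-Tg. It had 8 in WT cultures at day 0, 8 in day 7 cultures labelled NFIA-Tg and 28 in WT cultures at day 7. It was listed at 0 in WT iWAT, so its likeness rests mostly on 1 group. For Klb they were Pcx (pyruvate carboxylase), Gpat3 (an enzyme of triglyceride synthesis) and Fcor, at 0.20, 0.31 and 0.35. Pcx averaged 335 FPKM in day 7 cultures labelled NFIA-Tg and 617 FPKM in WT cultures at day 7, and 212 FPKM in NFIA-Tg iWAT and 291 FPKM in WT iWAT. For Fgfr1 they were Ski, Vim and Ttc28, at 0.10, 0.12 and 0.13. Vim, the vimentin of mesenchymal cells, averaged 241 FPKM in day 7 cultures labelled NFIA-Tg and 525 FPKM in WT cultures at day 7.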

How the data were processed

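Polyadenylated RNA of 18 samples was sequenced, 3 in each of 6 groups taken from the labels. The authors deposited FPKM values, 1 table per sample, per the file headers and labels; STAR 2.7.8a, StringTie 2.1.1 and the build mm9 are named, with no role, in the submitters' processing notes. Annotation, strand setting and the treatment of multimapping reads are not given in those notes. In the culture tables FPKM times the listed length gave whole reads for 100% of values (within 0.01), so reads and depth were recovered. In the iWAT tables it did not, and 410 entries that share 180 symbols were summed. No 2 libraries were identical.

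Differences were tested with limma 3.58.1 in R 4.3.3 (empirical Bayes with a mean-variance trend, two-sided) on log2(FPKM + 1), for genes with at least 1 FPKM in at least 3 of the fitted samples, with Benjamini-Hochberg adjustment over all genes tested and a threshold of 0.05. The fit for iWAT had 6 samples and that for cultures 12. The difference between tissue and day 7 was fitted to 12 samples, those of iWAT and day 7. The script was tested on simulated data. Ratios of summed reads have exact 95% intervals, which cover counting error only. Alternatives were a pseudocount of 0.1, no filter, median-of-ratios and TPM scaling, a replicate block, leaving out each sample, 1 fit to all 18 samples, and limma-voom on recovered reads. Genes were named by rule: the 4 genes, Nfia, up to 3 called genes of smallest adjusted p per list and comparison, the receptors, ligands and main stress genes, and the 3 genes most like each. Further members of a list were named outside that rule to show what made up its counts. The 4 genes and all lists were chosen with earlier results of these data known.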

Additional observations from a re-analysis of the deposited data

Results flagged for a closer look

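The genotype difference of Fgf21, Gdf15 and Fgfr1 differed between day 7 and day 0, and that of all 4 genes between tissue and day 7 cultures, by a test of the difference itself in limma. Of all genes tested, 72.1% passed the former test and 54.3% the latter, so passing does not set these genes apart. Genotype by differentiation was 1.48 for Fgf21, -2.50 for Gdf15 and -1.45 for Fgfr1 on the log2(FPKM + 1) scale. The value of Fgf21 was smaller with a pseudocount of 0.1, with the call kept. The value of Klb, -0.85, passed on that scale but repeats its day 7 difference, because Klb had at most 3 reads per library at day 0, and limma-voom on reads did not pass (adjusted p = 0.334). The genotype difference in iWAT less that at day 7 was -2.45 for Fgf21, -0.97 for Gdf15, 0.68 for Klb and 1.60 for Fgfr1. That of Gdf15 lost its call with no filter and in some fits without 1 replicate. Nfia itself was higher in NFIA-Tg iWAT and at day 0 and lower in the day 7 cultures labelled NFIA-Tg, so these differences are between labels.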

How the results depend on the processing

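Of 601 values of the 4 genes and of counts of called genes under alternatives, 578 kept their direction and their side of the threshold, or a count within 1.5 times, and none reversed. In iWAT 1413 genes were called, 934 with no filter, 5141 in 1 fit to all 18 samples and 617 to 1262 without 1 replicate. In that fit to all 18 samples Gdf15 (-0.68) and Fgfr1 (0.25) passed in iWAT, with a spread taken from tissue and culture samples together. Fgfr1 at day 0 (0.09 to 0.11 without 1 replicate) and Gdf15 at day 7 (0.23 to 0.33 without 1 replicate, and 0.24 under TPM scaling) lost their calls in some of these fits. Genotype by differentiation of Klb lost its call under limma-voom (-1.08). Gdf15 in iWAT less day 7 lost its call with no filter (-0.97; limma, adjusted p = 0.0527) and in some fits without 1 replicate (-1.23 to -0.73). The cause was not tested. Among the single genes named in iWAT, the calls of Ddit3, Nupr1, Atf3, Fgfr2, Fgf11, Ppargc1a, Hspd1, Hspa9 and Clpp were also lost under at least 1 of no filter, median-of-ratios or TPM scaling and the replicate block (limma, adjusted p 0.05 to 0.098). Replicate numbers did not pair the samples, with correlations of -0.11 to 0.16 between deviations of same-numbered samples. With a replicate block the calls numbered 1282 in iWAT, 10136 at day 7 and 7822 at day 0, and no call of the 4 genes changed. Fits with only the 6 samples compared, added after seeing the data, changed no call of the 4 genes. TPM scaling moved the share of genes higher at day 7 than at day 0 to 42% from 52.4% in cultures labelled NFIA-Tg and to 45.8% from 56.6% in WT cultures, and median-of-ratios scaling that of iWAT less day 7 to 49.8% from 65.9%. The depth of iWAT is unknown, and at day 0 Klb had at most 3 reads per library.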
